A study of Mus musculus with 10 samples.

Results

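The replication-dependent histone genes were taken as every protein-coding gene whose mouse symbol begins with Hist1h, Hist2h, Hist3h or Hist4h in the GENCODE M21 annotation, a rule that uses names and no measured value. It found 67 genes among the 34932 genes of the files, of which 6 encode linker histone H1, 18 encode H2A, 18 encode H2B, 12 encode H3 and 13 encode H4. They were followed in 10 bulk RNA-seq libraries of tumor-infiltrating Pmel CD8+ T cells, whose transgenic receptor recognizes the melanoma antigen gp100. Splenocytes of Thy1.2/Thy1.2 Pmel mice were activated with gp100 peptide and IL-2 and transduced with a retrovirus that expresses Thy1.1 together with mouse BATF (MIT-BATF, 5 libraries) or with nothing else (MIT-Empty, 5 libraries). Both sets of cells were then grown in IL-2, IL-7 and IL-15 and transferred into Ly5.1 mice bearing B16-F10 melanoma, and after 7 days 2000 live Thy1.1+ cells of each mouse were sorted from the tumor for a modified SMART-Seq2 library. The viral promoter drives the transgene, the hosts kept their own immune cells, and the mice were 8 to 12 weeks old.

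Histones package DNA. H2A, H2B, H3 and H4 form the protein core of the nucleosome, and H1 binds the DNA between nucleosomes. The replication-dependent genes lie in clusters, are transcribed mainly in S phase when new chromatin is made, and give short mRNAs without introns that usually end just past a stem-loop instead of a poly(A) tail. The stem-loop is bound by SLBP, which is needed for 3' end processing and translation of the mRNA. Some of these genes also give polyadenylated transcripts, above all in cells that divide little. SMART-Seq2 primes reverse transcription on poly(A), so the counts here are not a measure of all histone mRNA in the cells, and the share of it that they hold was not measured.

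The stem-loop was looked for in the transcript model of each gene that held most of its counts, as the 16 letters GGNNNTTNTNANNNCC with complementary arms. It was present in 46 of the 67 genes, while in the whole annotation 107 of 141767 transcripts (0.0755%) held it, from 79 genes. Of the models without it, 18 ended within 60 bases of the stop codon, and a loop past their end could not be found. A model without the loop therefore does not show that the gene lacks it. The most frequent form was shared by 26 genes of the H1, H2A, H2B and H3 classes. The form of 7 H4 genes differed from it in the stem. Below are the loops, in the sense direction of GRCm38, of the genes on which the results turn, with both arms of the stem in capitals and the flanking bases and the loop in lower case.
Hist1h1d: caaacGGCTCTtttcAGAGCCacc
Hist1h2bb: ccaaaGGCTCTtttaAGAGCCacc
Hist1h3a: ccaaaGGCTCTtttcAGAGCCaca
Hist1h1c: caaaaGGCTCTtttcAGAGCCacc
Hist1h4c: caaaaGGCCCTtttcAGGGCCacc
Hist1h2ap: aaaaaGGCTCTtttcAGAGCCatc
Hist1h1d and Hist1h1c, which part ways in the results that follow, have the same stem and loop.

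Libraries held 10702908 to 34102346 estimated counts in genes under the label MIT-BATF, against 6534648 to 21355922 under the label MIT-Empty, and histone genes made up 0.0940 to 0.132% of them, against 0.122 to 0.186%. Batf itself was at 12.4 to 26.5 CPM (counts scaled to library size) under the label MIT-BATF and at 13.5 to 50.8 CPM under the label MIT-Empty (log2 fold change -0.41, SE 0.30, adjusted p = 0.522, edgeR), so the counts do not show the transgene, and each direction given here is that of libraries so labelled. In each group the counts of replicate 4 lay almost wholly within those of replicate 2, and those of replicate 5 within those of replicate 3, since under 1% of genes were higher in the contained library. These 4 pairs are not independent samples, so results are also given with the contained counts subtracted, called shared reads counted once. None of the 8 CD8+ T cell markers passed the test (0 past the threshold in either direction by edgeR, DESeq2 or limma voom, and 0 at an unadjusted p under 0.05). Melanoma markers were lower in MIT-BATF libraries in 6 of 6 tested genes by edgeR and DESeq2 (0 by limma voom, and 2 of 5 with shared reads counted once), with summed levels of 14.4 to 29.5 CPM, against 39.8 to 1738 CPM in MIT-Empty libraries, and none of the 8 was at 0 in every library. Of 9 macrophage markers tested, 3 were lower (1 of 8 with shared reads counted once), with sums of 23.9 to 80.7 CPM, against 41.0 to 276.9 CPM. Fibroblast and endothelial markers summed to 6.99 to 14.1 CPM in MIT-BATF libraries, against 16.1 to 107 CPM in MIT-Empty libraries, and 1 of 2 tested was lower. Of 4 dendritic cell markers tested, Xcr1 and Itgax were higher in MIT-BATF libraries (Xcr1 alone with shared reads counted once), while the sums overlapped. B cell markers summed to 2.55 to 4.74 CPM in MIT-BATF libraries, against 0.659 to 2.08 CPM, and 1 of 1 tested was higher. Erythroid markers summed to 488.6 and 156.8 CPM in MIT-BATF replicates 2 and 3, and to at most 0.489 CPM in the other MIT-BATF libraries. MIT-Empty libraries held 0 to 72.9 CPM of them, and 0 of 4 tested passed in either direction by edgeR. Mitochondrial genes held 33.2% of counts in MIT-BATF replicate 1, 11.5 to 15.1% in the other MIT-BATF libraries and 15.5 to 23.1% in MIT-Empty libraries.

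The comparison of MIT-BATF with MIT-Empty asked how forced BATF expression changes the transcripts of these T cells. Histone counts tended to be lower in the libraries labelled MIT-BATF, unevenly so between genes. Of the 67 histone genes, 58 passed the filter on low counts, 12 were lower in MIT-BATF libraries and 0 were higher at an adjusted p under 0.05 (quasi-likelihood test of edgeR, adjusted by Benjamini-Hochberg over 11781 genes), where 2.43% of all genes tested were lower and 2.16% were higher. Before adjustment, 33 were lower and 2 were higher at a p under 0.05 (8.97% and 9.13% of all genes by edgeR). DESeq2 and limma voom each called 21 lower and 0 higher, and the share of all genes that they called is not given here. The 12 genes were Hist1h1b and Hist1h1d among H1 genes, Hist1h2ai and Hist1h2ak among H2A genes, Hist1h2bb, Hist1h2bj and Hist2h2be among H2B genes, Hist1h3a, Hist1h3c and Hist2h3b among H3 genes, and Hist1h4c and Hist1h4n among H4 genes. Of the 58 genes, 52 had a negative log2 fold change (49.3% of all genes), and the median was -0.80, against 0.01 over all genes. The filter was passed in every library by 39 of them and in fewer than 3 MIT-BATF libraries by 4, Hist1h1a, Hist1h2ah, Hist1h2an and Hist1h2br, none of which is among the 12. Those 4 were tested because of their MIT-Empty counts. Without them, 48 of 54 had a negative value and the median was -0.75, against 0.01 over all genes that passed in at least 3 libraries of each group, a limit chosen after the values were seen.

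With shared reads counted once, 3 of 57 genes tested were lower and 0 were higher (0.683% and 0.575% of 11131 genes; at an unadjusted p under 0.05, 26 and 0, against 5.18% and 5.45%). They were Hist1h1d, Hist1h2bb and Hist1h3a, and they were also the only histone genes called in each of the 10 fits that left out 1 library. The signs changed less than the calls, with 51 of 57 negative (50.1% of all genes) and a median of -0.83. Every MIT-BATF library lay below every MIT-Empty library in 19 of the 58 genes, where 3.2% of all genes tested did so, and in 13 of the 57 with shared reads counted once (1.57%). Hist1h1a, Hist1h2ah and Hist1h2br, which passed the filter in fewer than 3 MIT-BATF libraries, are among the 19, and 16 of 54 lay below when such genes were left out (2.79% of all genes). None of those tested lay wholly above, where 3.28% and 1.62% of all genes did. Without MIT-Empty replicates 2 and 4, the libraries richest in melanoma markers, 3 genes were called lower, namely Hist1h1d, Hist1h2ai and Hist1h3a. With the 4 contained libraries left out altogether, 2 were called (Hist1h1d and Hist1h4n), and with the 4 containing libraries left out, 0 of 56 were (edgeR; 12 lower before adjustment at a p under 0.05), each of these fits having 3 libraries a group.

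**Figure D1:**
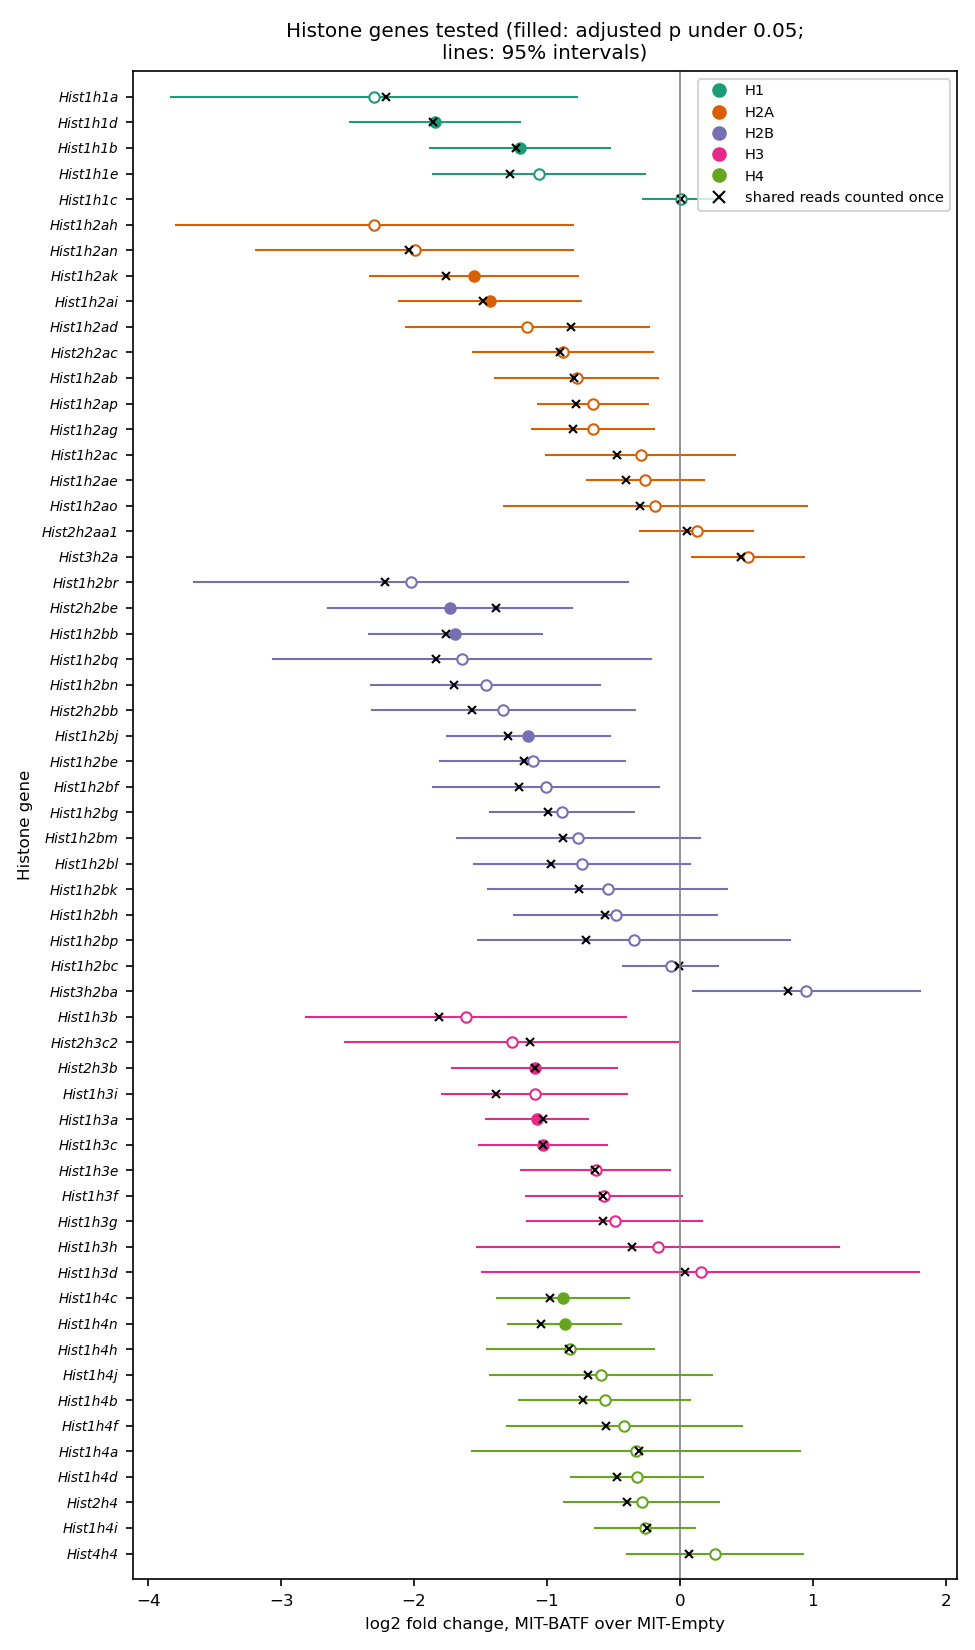
Log2 fold change (MIT-BATF over MIT-Empty) of the 58 histone genes tested, by class, with 95% intervals as lines, filled circles for an adjusted p under 0.05 and crosses for the value with shared reads counted once. Of the 58 circles, 52 lie left of 0, and 12 are filled.

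Summed by class, the counts were lower in MIT-BATF libraries for each class, with a gap between the groups for H1, H3 and H4. H3 genes together were at 47.4, 38.4, 38.3, 34.6 and 58.9 CPM in MIT-BATF replicates 1 to 5, against 68.5, 73.5, 77.6, 81.0 and 90.9 CPM in MIT-Empty replicates 1 to 5, a log2 ratio of means of -0.85. All 5 MIT-BATF libraries were below all 5 MIT-Empty libraries, also with shared reads counted once (-0.88). H4 genes averaged 81.3 ± 16.3 CPM in MIT-BATF libraries and 118 ± 9.70 CPM in MIT-Empty libraries (SD, n = 5 each; log2 ratio -0.54), without overlap in the counts as deposited and with overlap when shared reads were counted once. H1 genes averaged 47.2 ± 3.75 CPM in MIT-BATF libraries and 58.8 ± 4.65 CPM in MIT-Empty libraries (SD, n = 5 each, log2 ratio -0.32), without overlap in CPM either way. The H1 gap was narrow, from 51.5 CPM in the highest MIT-BATF library to 53.3 CPM in the lowest MIT-Empty library. The H4 gap was narrow too, from 107.9 CPM in the highest MIT-BATF library to 109 CPM in the lowest MIT-Empty library. H2B genes averaged 96.2 ± 25.4 CPM in MIT-BATF libraries, against 149.6 ± 16.6 CPM in MIT-Empty libraries (SD, n = 5 each; log2 ratio -0.64), and MIT-BATF replicate 5, at 135.6 CPM, reached into the MIT-Empty range. H2A genes, the most abundant class, were at 827.5 ± 216 CPM in MIT-BATF libraries and 1149 ± 176 CPM in MIT-Empty libraries (SD, n = 5 each; log2 ratio -0.47), and the groups overlapped. The H2A ratio was -0.28 without Hist1h2ap and -0.26 without the 4 containing libraries. In the deposited TPM the groups were apart for H2B, H3 and H4 and overlapped for H1 and H2A, so the separation of H1 and H2B depends on the unit. These sums are descriptions and were given no test.

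**Figure D2:**
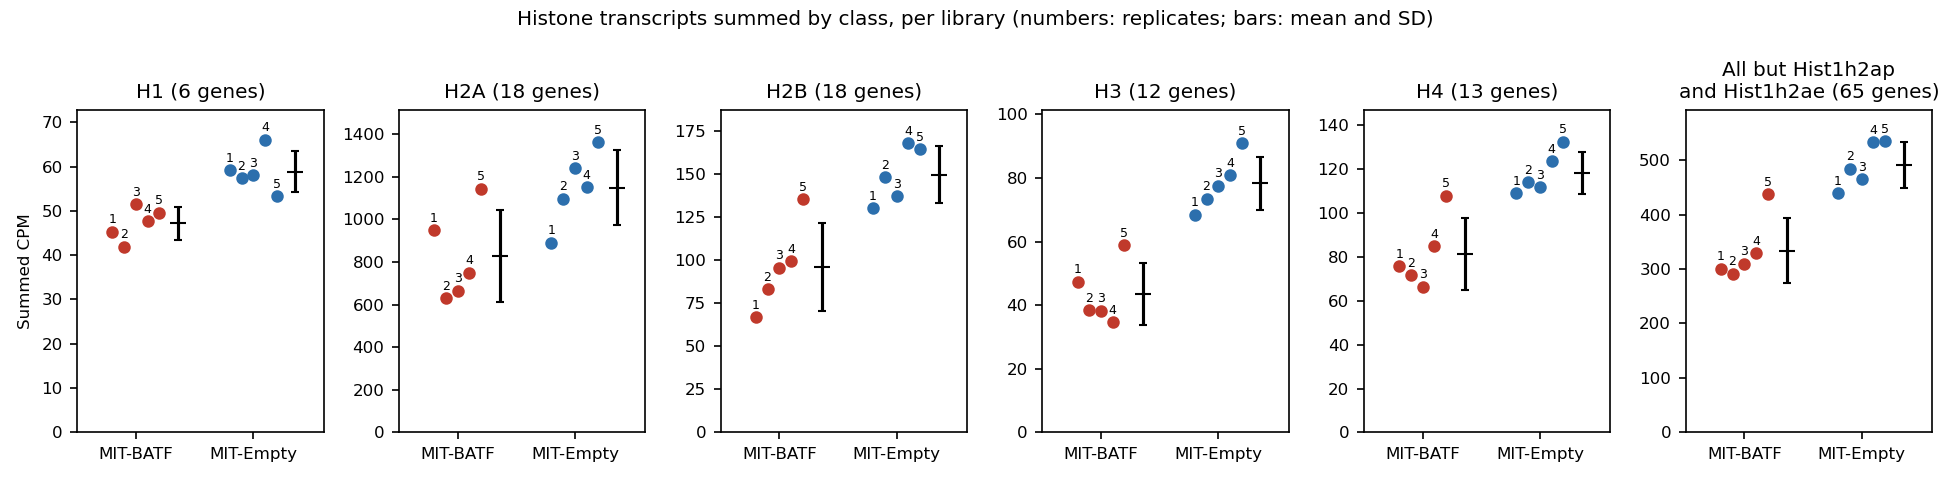
Summed CPM of each histone class, and of all genes but Hist1h2ap and Hist1h2ae, in each library, labelled MIT-BATF on the left and MIT-Empty on the right, with replicate numbers and bars for the mean and SD. The groups are apart for H1, H3, H4 and the sum of 65 genes, and MIT-BATF replicate 5 is the highest of its group in all panels but H1.

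A pair of H2A genes set the total. Per length, Hist1h2ap averaged 1260 TPM and Hist1h2ae 661 TPM over the 10 libraries, while the next gene, Hist1h4n, averaged 70.1 TPM. Only 6.73% of the 37-base words of the Hist1h2ap model are unique to it, and 53.4% of those of Hist1h2ae, so the level of Hist1h2ap rests on how the estimation divided reads among copies. Its near copy Hist1h2ao (6.31% unique) was given 735 counts over the 10 libraries, against 87365 for Hist1h2ap. Together both leading genes held 65.1 to 74.6% of all histone counts in a library. Hist1h2ap was at 386.5, 331, 329, 390.4 and 562 CPM in MIT-BATF replicates 1 to 5, against 448, 574, 729, 576 and 816 CPM in MIT-Empty replicates 1 to 5. Its MIT-BATF replicate 5 lay within the MIT-Empty range, and its log2 fold change of -0.65 (SE 0.19) missed the threshold (adjusted p = 0.0736, edgeR). Hist1h2ae overlapped between the groups, with a log2 fold change of -0.26 (95% interval -0.70 to 0.18, adjusted p = 0.564, edgeR). Without both genes the other 65 summed to 300.4, 291, 309.7, 329 and 437 CPM in MIT-BATF replicates 1 to 5, against 439, 484, 465, 533.5 and 535 CPM in MIT-Empty replicates 1 to 5 (log2 ratio -0.56), with a narrow gap between the groups that closed when shared reads were counted once.

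The H1 genes split. Hist1h1d (ENSMUSG00000052565.7), a linker histone gene at chr13:23553262-23560686 on the plus strand of GRCm38, was at 2.09, 2.09, 2.33, 0.813 and 2.95 CPM in MIT-BATF replicates 1 to 5, against 8.34, 8.36, 7.32, 7.37 and 6.24 CPM in MIT-Empty replicates 1 to 5. Every MIT-BATF library was far below every MIT-Empty library. Its log2 fold change was -1.84 (SE 0.30, adjusted p = 0.00297, edgeR), and -1.86 with shared reads counted once (adjusted p = 0.0153). Hist1h1d was counted over a model of 7425 bases, 4931 of them past the stop codon, and averaged 0.335 TPM. Where in the model its reads fell was not measured. Hist1h1c, the most abundant H1 gene, at chr13:23738808-23740367 on the same strand, was at 41.7, 34.1, 44.6, 40.6 and 41.1 CPM in MIT-BATF replicates 1 to 5, against 37.8, 37.3, 39.5, 49.6 and 36.4 CPM in MIT-Empty replicates 1 to 5. These values overlap throughout, and the log2 fold change was 0.01 (95% interval -0.28 to 0.30, adjusted p = 0.976, edgeR). Within each library the ratio of Hist1h1d to Hist1h1c counts needs no scaling between libraries. It was 0.0200 to 0.0719 under the label MIT-BATF, against 0.149 to 0.224 under the label MIT-Empty. The pair joins a gene called lower with one near 0, so a lower ratio follows from that choice and is no separate evidence. Hist1h1b, another linker histone gene, was also lower (log2 fold change -1.20, SE 0.32, adjusted p = 0.0423, edgeR), but not past the threshold with shared reads counted once (adjusted p = 0.148). Hist1h1e had a log2 fold change of -1.06 and Hist1h1a one of -2.30, neither past the threshold (adjusted p = 0.136 and 0.0879, edgeR), and Hist1h1t, the testis form, had no count in any library. The 5 H1 genes other than Hist1h1c summed to 6.76 ± 1.86 CPM in MIT-BATF libraries and 18.7 ± 2.08 CPM in MIT-Empty libraries (SD, n = 5 each; log2 ratio -1.47, no overlap). Leaving out Hist1h1c, whose fold change was near 0, in itself moves the ratio away from 0. Hist1h1e shares 496 bases of its annotation with Hist1h2be on the same strand, so reads there cannot be told apart.

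H2B genes showed the same kind of split. Hist1h2bb (ENSMUSG00000075031.4), at chr13:23746734-23747241 on the plus strand, was at 1.47, 2.17, 2.35, 1.74 and 3.70 CPM in MIT-BATF replicates 1 to 5, against 6.19, 9.42, 5.58, 10.6 and 5.89 CPM in MIT-Empty replicates 1 to 5. No MIT-BATF library reached the MIT-Empty range, and the log2 fold change was -1.69 (SE 0.31, adjusted p = 0.00549, edgeR), and -1.76 with shared reads counted once (adjusted p = 0.0255). Both of the highest values were those of MIT-Empty replicates 2 and 4, and without them the log2 fold change was -1.34 with an adjusted p of 0.0713 (edgeR). Hist1h2bc, at chr13:23684199-23692908, was at 42.3, 36.1, 47.9, 47.7 and 54.5 CPM in MIT-BATF replicates 1 to 5, against 38.9, 38.6, 44.2, 57.6 and 60.4 CPM in MIT-Empty replicates 1 to 5. Its model holds no loop and runs further past the stop codon. Its groups overlapped, with a log2 fold change of -0.07 (95% interval -0.43 to 0.29, adjusted p = 0.885, edgeR). The within-library ratio of Hist1h2bb to Hist1h2bc counts was 0.0347 to 0.0679 in MIT-BATF libraries and 0.0975 to 0.244 in MIT-Empty libraries. This pair too joins a gene called lower with one near 0, so the ratio is no separate evidence. Hist1h2bj, the most abundant H2B gene per length at 48.5 TPM, was at 4.96, 11.01, 12.4, 9.04 and 22.9 CPM in MIT-BATF replicates 1 to 5, against 24.3, 29.6, 25.1, 26.6 and 28.5 CPM in MIT-Empty replicates 1 to 5. MIT-BATF replicate 5 came close to the lowest MIT-Empty library, and the log2 fold change was -1.14 (SE 0.29, adjusted p = 0.0352, edgeR; 0.118 with shared reads counted once). Hist2h2be was lower at very low levels (-1.73, SE 0.43, adjusted p = 0.0327, edgeR; 0.291 with shared reads counted once). Hist1h2bg (-0.88, adjusted p = 0.0619) and Hist1h2be (-1.11, adjusted p = 0.0710) missed the threshold by edgeR, although their groups did not overlap. Together, the 17 H2B genes without Hist1h2bc summed to 50.5 ± 20.1 CPM in MIT-BATF libraries and 101.6 ± 9.10 CPM in MIT-Empty libraries (SD, n = 5 each; log2 ratio -1.01, no overlap). Leaving out Hist1h2bc, whose fold change was near 0, in itself moves the ratio away from 0, and with it the H2B groups overlapped. The highest log2 fold change of any histone gene tested was 0.95 (SE 0.40, adjusted p = 0.219, edgeR). It was that of Hist3h2ba, an H2B gene outside the large clusters.

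**Figure D3:**
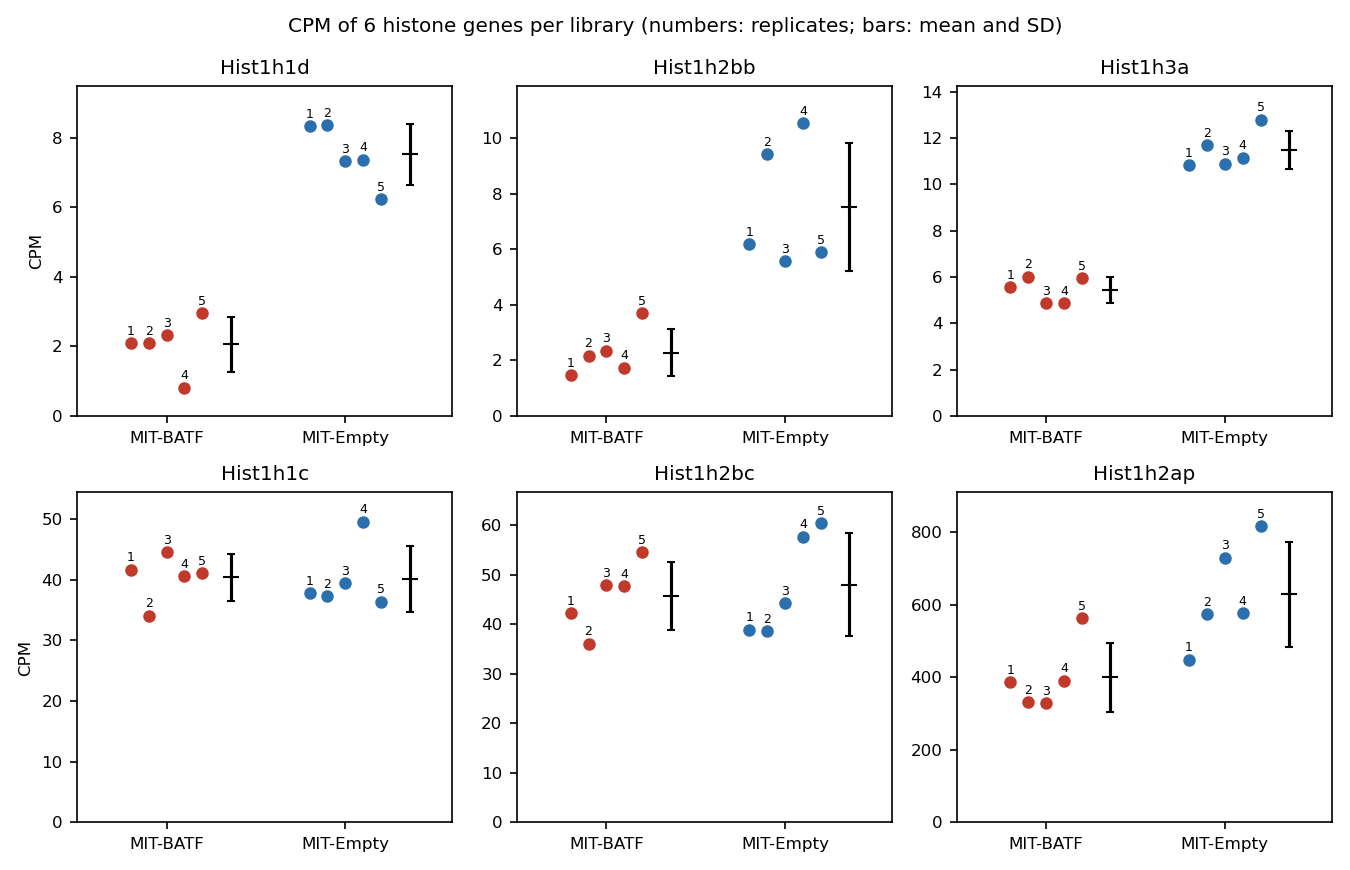
CPM of Hist1h1d, Hist1h2bb and Hist1h3a (top) and of Hist1h1c, Hist1h2bc and Hist1h2ap (bottom) in each library, labelled MIT-BATF on the left and MIT-Empty on the right, with replicate numbers and bars for the mean and SD. The groups are apart in the top row and overlap in the bottom row.

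Among H3 genes, Hist1h3a (ENSMUSG00000069265.2), at chr13:23761853-23762386 on the minus strand, had the tightest values. It was at 5.55, 6.02, 4.87, 4.88 and 5.94 CPM in MIT-BATF replicates 1 to 5, against 10.8, 11.7, 10.9, 11.2 and 12.8 CPM in MIT-Empty replicates 1 to 5. Its groups were far apart for their spread, with a log2 fold change of -1.07 (SE 0.18, adjusted p = 0.00346, edgeR), and -1.03 with shared reads counted once (adjusted p = 0.0450). Hist1h3c, the most abundant H3 gene per length at 33.6 TPM, was at 8.96, 9.66, 10.2, 7.38 and 16.9 CPM in MIT-BATF replicates 1 to 5, against 17.7, 18.5, 20.6, 29.3 and 23.1 CPM in MIT-Empty replicates 1 to 5. Its groups met closely, with MIT-BATF replicate 5 just below MIT-Empty replicate 1. Hist1h3c (-1.03, adjusted p = 0.0167) and Hist2h3b (-1.09, adjusted p = 0.0443) were lower in the same fit with edgeR, and neither passed with shared reads counted once (adjusted p = 0.146 and 0.192). No 37-base word of the Hist2h3b model was unique to it, so its counts rest on how the estimation divided reads among copies. Hist1h3e overlapped between the groups (-0.63, adjusted p = 0.214, edgeR), and the ratio of Hist1h3a to Hist1h3e overlapped too.

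In the H4 class, Hist1h4n was at 15.1, 14.9, 16.4, 17.7 and 31.1 CPM in MIT-BATF replicates 1 to 5, against 35.7, 35.1, 30.4, 39.1 and 33.8 CPM in MIT-Empty replicates 1 to 5. All but MIT-BATF replicate 5 were apart, and 13.96% of its 37-base words are unique (log2 fold change -0.87, SE 0.20, adjusted p = 0.0228, edgeR). Hist1h4c was lower without overlap (-0.88, SE 0.23, adjusted p = 0.0426, edgeR), and both genes missed the threshold with shared reads counted once (adjusted p = 0.189 and 0.137). Hist1h4i, the second H4 gene by TPM, had a log2 fold change of -0.26 (95% interval -0.64 to 0.11), and Hist4h4, alone on chromosome 6, one of 0.27 (95% interval -0.40 to 0.93). In the H2A class, Hist1h2ak was at 0.414, 1.64, 1.04, 1.92 and 1.69 CPM in MIT-BATF replicates 1 to 5, against 3.26, 4.17, 4.47, 3.72 and 4.01 CPM in MIT-Empty replicates 1 to 5. It and Hist1h2ai were lower without overlap (-1.55, adjusted p = 0.0262, and -1.43, adjusted p = 0.0197, edgeR; 9.52% of the words of Hist1h2ai are unique), and neither passed with shared reads counted once (adjusted p = 0.0814 and 0.182). Hist2h2aa1 had a log2 fold change of 0.13 (95% interval -0.30 to 0.55), and no 37-base word of its model was unique to it. Hist3h2a had a log2 fold change of 0.51 (SE 0.20, adjusted p = 0.172, edgeR), but it lies within Trim17 on the same strand. Hist1h1t, Hist1h2ba, Hist1h4m and Hist2h2aa2 had no count in any library. In MIT-BATF libraries 3 counts would be 0.0695 to 0.294 CPM, and in MIT-Empty libraries 0.123 to 0.485 CPM. No 37-base word of the Hist2h2aa2 model is unique to it, and 9.84% of those of Hist1h4m are. The lack of counts for Hist2h2aa2 and Hist1h4m therefore rests on how the estimation divided reads among copies.

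By position, the genes fell into 5 groups more than 300 kb apart on GRCm38. For comparison, 2.43% of all genes tested were lower by edgeR and 49.3% had a negative log2 fold change. The larger chromosome 13 cluster, chr13:23531050-23934851, held 31 genes, of which 5 of 27 tested were lower, and it included Hist1h1d, Hist1h2bb and Hist1h3a. The other chromosome 13 cluster, chr13:21715763-22043676, held 23 genes, of which 5 of 21 tested were lower, and all 21 had a negative log2 fold change. The chromosome 3 cluster, chr3:96219865-96270132, held 10 genes, of which 2 of 7 were lower. On chromosome 11, Hist3h2ba and Hist3h2a, at chr11:58948920-58956830, were both positive, and they are the 2 genes with an unadjusted p under 0.05 on that side. Hist1h1d and Hist1h1c, which differed so much in their fold changes, lie in 1 cluster.

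The transcript models differ at their 3' ends, which matters for a poly(A)-primed library. Models of 22 genes ended within 60 bases of the stem-loop, those of 24 ran further past it, 18 held no loop and ended within 60 bases of the stop codon, and 3 held no loop and ran further past the stop codon. The distance of 60 bases was chosen after the models were seen. The median log2 fold change was -0.77 over the 20 genes tested that end near the loop and -0.41 over the 22 that run further past it. Without a loop and near the stop codon, 13 genes were tested with a median of -1.43, which is -1.27 over the 10 left without Hist1h1a, Hist1h2ah and Hist1h2an. Several of these models, such as those of Hist1h2ai and Hist1h2ak, stop at the stop codon itself. They do not show where the transcript ends, so this median does not describe a kind of 3' end. The 3 genes without a loop that run further were at -0.07 (Hist1h2bc), -1.73 (Hist2h2be) and -2.03 (Hist1h2br). Of the 6 genes with a positive value, 5 were models that run further past the loop, and Hist2h2aa1 was the other. Hist1h1d, the lowest of the genes with a loop, also runs past its loop, by 4884 bases, against 840 bases in Hist1h1c. The kinds also differ in how well reads can be placed. The median share of 37-base words unique to a model was 31.1% for those that end near the loop, 70.4% for those that run past it, 12.0% for those without a loop that end near the stop codon and 66.4% for the last 3. These features were not tested against each other. For Hist1h1d the share was 97.0%, for Hist1h2bb 55.3% and for Hist1h3a 44.0%.

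**Figure D4:**
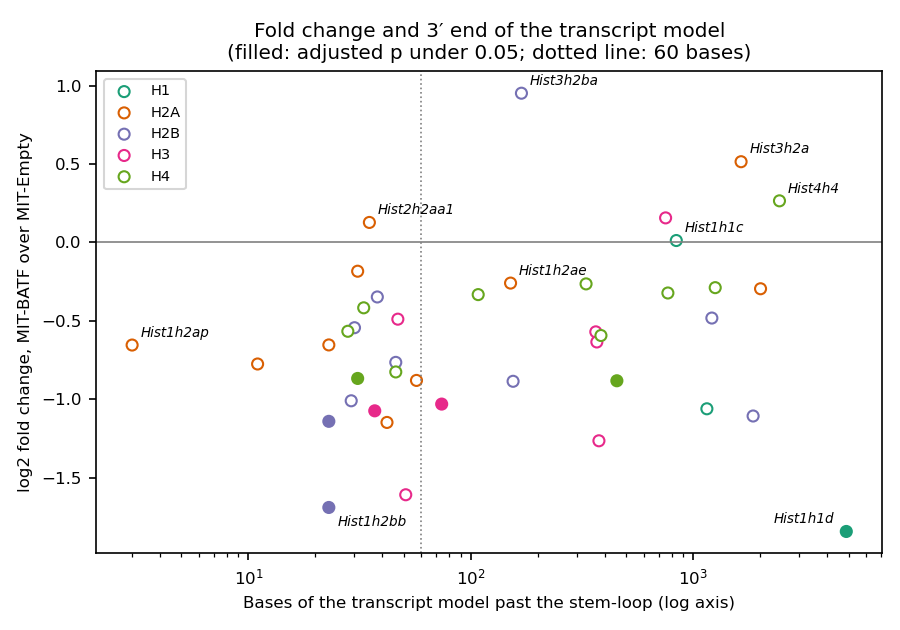
Log2 fold change (MIT-BATF over MIT-Empty) against the number of bases of the transcript model past the stem-loop, on a log axis, for the histone genes tested whose model holds a loop, with filled circles for an adjusted p under 0.05 and a dotted line at 60 bases. Of the 6 positive genes, 5 lie right of the line, as does Hist1h1d at the lowest value.

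Promoters were read from RefSeq on GRCm38.p6, where 62 of the 67 genes matched, as 250 bases before to 50 bases after the start. The octamer ATTTGCAT, the motif of the Oct-1 factor (Pou2f1) known from H2B genes, was present on either strand in 38.9% of H2A and 37.5% of H2B promoters, in none of the H1, H3 and H4 promoters, and in 1.74% of all promoters. The windows of Hist1h2ae and Hist1h2bg, of Hist1h2ah and Hist1h2bk, and of Hist1h2aa and Hist1h2ba overlap. The octamer of each such pair is the same site, counted in both classes. CCAAT was present in every H1, H2A, H2B and H3 promoter matched and in 25.0% of H4 promoters (37.4% of all). TATAAA was present in 56.5% of the histone promoters (13.6% of all). The windows of Hist1h2bb and Hist1h1d, which were lower in MIT-BATF libraries, and of Hist1h1c, whose groups overlapped, are shown 5' to 3' on the plus strand with these motifs on either strand in capitals.
Hist1h2bb, chr13:23746484-23746783: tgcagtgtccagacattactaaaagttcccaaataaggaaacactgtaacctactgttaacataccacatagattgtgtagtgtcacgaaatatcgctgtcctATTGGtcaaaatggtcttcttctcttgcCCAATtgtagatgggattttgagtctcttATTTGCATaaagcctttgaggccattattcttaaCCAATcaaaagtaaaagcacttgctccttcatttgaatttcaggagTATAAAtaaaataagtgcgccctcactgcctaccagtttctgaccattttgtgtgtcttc
Hist1h1d, chr13:23554782-23555081: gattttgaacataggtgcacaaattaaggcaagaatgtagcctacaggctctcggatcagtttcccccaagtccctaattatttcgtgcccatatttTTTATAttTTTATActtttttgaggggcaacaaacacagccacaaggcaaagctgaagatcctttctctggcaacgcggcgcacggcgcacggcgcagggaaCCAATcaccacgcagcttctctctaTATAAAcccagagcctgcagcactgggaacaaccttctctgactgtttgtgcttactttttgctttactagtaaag
Hist1h1c, chr13:23738557-23738856: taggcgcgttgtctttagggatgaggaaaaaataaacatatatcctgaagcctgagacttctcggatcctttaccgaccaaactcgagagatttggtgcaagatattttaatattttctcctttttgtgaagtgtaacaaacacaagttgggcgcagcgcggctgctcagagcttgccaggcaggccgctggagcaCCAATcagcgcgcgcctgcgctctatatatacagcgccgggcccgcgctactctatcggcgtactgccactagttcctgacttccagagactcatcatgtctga
Hist1h2bb held all 3 motifs, Hist1h1d held TATAAA and CCAAT, and Hist1h1c held CCAAT. The RefSeq start of Hist1h1d lies inside its longer GENCODE model. A match is a description of the letters and not a measured site.

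Genes that act with these histones mostly did not pass the test. Among all genes tested, 2.43% were lower and 2.16% were higher by edgeR. Of 26 genes for histone gene transcription and mRNA 3' processing, 1 was lower and 0 were higher (edgeR; 3 and 0 before adjustment at a p under 0.05; 1 lower by DESeq2 and 0 by limma voom). It was Ccne1, a cyclin that with Cdk2 drives entry into S phase (log2 fold change -0.94, SE 0.25, adjusted p = 0.0486). Npat, the coactivator of histone genes, was at 0.13 and Slbp, which binds the stem-loop, at -0.08 on the log2 scale of the fold change (adjusted p = 0.746 and 0.817, edgeR). Of 16 genes for histone mRNA decay, 0 passed in either direction by edgeR, DESeq2 or limma voom (at an unadjusted p under 0.05, 1 lower and 1 higher). Of 25 histone chaperones and acetylating enzymes, 1 was lower, Hat1, which acetylates new H4 (log2 fold change -0.76, SE 0.18, adjusted p = 0.0244, edgeR), and 0 were higher (0 also before adjustment). Neither Ccne1 nor Hat1 passed with shared reads counted once (adjusted p = 0.192 and 0.167).

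Among 9 replication-independent histone variants tested, which are polyadenylated and made outside S phase too, 1 was lower by edgeR (2.43% of all genes). It was also 1 by limma voom, and 2 were lower by DESeq2. None was higher by edgeR, DESeq2 or limma voom. Before adjustment, 2 were lower and 2 were higher at a p under 0.05 by edgeR. Cenpa, the H3 variant of centromeres, was at 88.3, 79.7, 93.2, 83.2 and 109.6 CPM in MIT-BATF replicates 1 to 5, against 184, 175.5, 199.5, 147 and 221.5 CPM in MIT-Empty replicates 1 to 5. It was apart in every library (log2 fold change -1.03, SE 0.15, adjusted p = 0.00123, edgeR) and stayed past the threshold with shared reads counted once (-1.07, adjusted p = 0.00833). H2afz, the most abundant variant, had a log2 fold change of -0.51 (SE 0.17, adjusted p = 0.120), and H3f3a and H3f3b, which both encode H3.3, had -0.36 and 0.27 (adjusted p = 0.282 and 0.345, edgeR).

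Part of the cell cycle genes were lower in the same libraries, where edgeR called 2.43% of all genes tested lower and 2.16% higher. Of 18 genes of G2 and M phase, 8 were lower and 0 were higher (0 also before adjustment), the median log2 fold change was -0.72, and their summed level was 276 to 431 CPM in MIT-BATF libraries, against 541 to 775 CPM in MIT-Empty libraries. Ccna2, the cyclin of S and G2 phase, had the smallest adjusted p of these 8 (log2 fold change -1.09, SE 0.18, adjusted p = 0.00292, edgeR). With shared reads counted once 2 of the 18 passed, Ube2c and Ccnb2, where 0.683% of all genes were lower. Of 30 S phase genes, 4 were lower, Fen1, Tk1, Tyms and Rrm1, and 0 were higher (0 also before adjustment), with a median of -0.24 and sums of 1164 to 1467 CPM in MIT-BATF libraries, against 1592 to 1669 CPM in MIT-Empty libraries. None of the 30 passed by edgeR with shared reads counted once. At an unadjusted p under 0.05, 6 of the 30 were lower in that fit, against 5.18% of all genes. The median over all genes was 0.01. In bulk samples fewer cells in a phase and less RNA per cell cannot be told apart, and the part of the melanoma and macrophage RNA in the histone values was not tested.

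**Figure D5:**
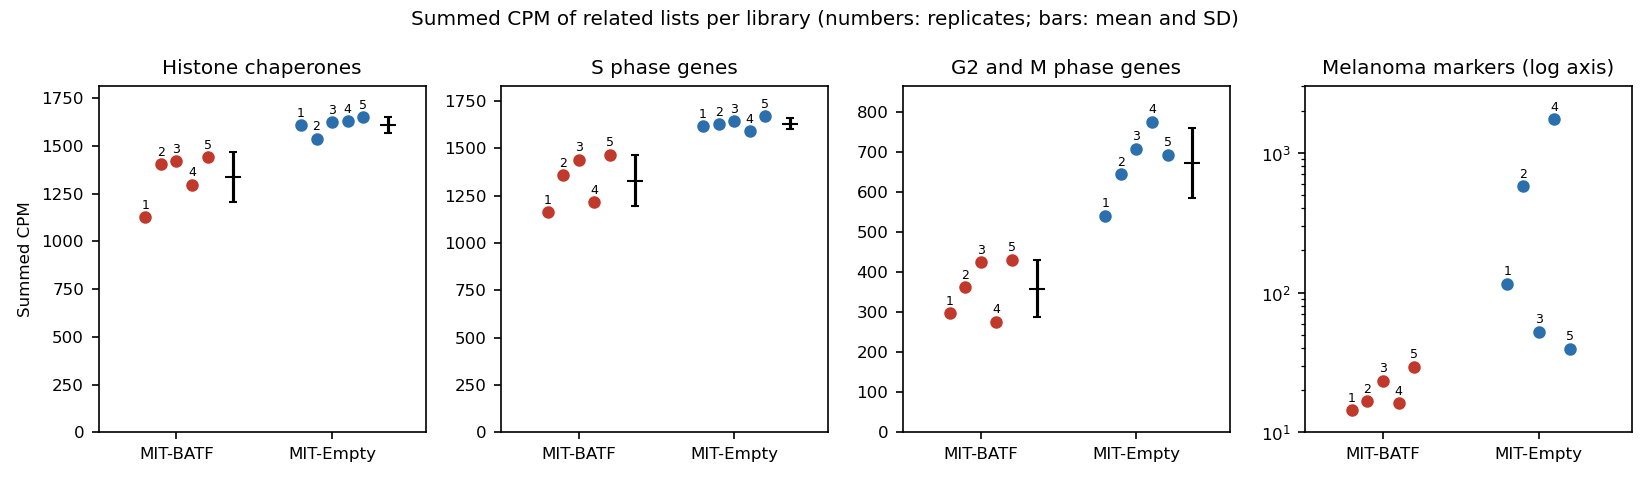
Summed CPM of the histone chaperone, S phase, G2 and M phase and melanoma marker lists in each library, labelled MIT-BATF on the left and MIT-Empty on the right, with replicate numbers; bars show the mean and SD, and the melanoma axis is logarithmic without bars. All 4 sums are lower in each MIT-BATF library than in any MIT-Empty library, and the G2 and M phase sums are 276 to 431 CPM, against 541 to 775 CPM.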

How the data were processed

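Tumor-infiltrating Pmel CD8+ T cells were profiled in 5 MIT-BATF and 5 MIT-Empty libraries, read as 37 bp pairs without strand. Per the submitters' processing notes, the authors quantified transcripts with Salmon against mm10. The methods name nf-core/rnaseq, and no source used here gives the Salmon version. For each transcript the deposited tables give estimated counts and TPM, both as the authors made them. Estimated counts were summed per gene with GENCODE M21 (111787 of 112092 transcripts matched, the rest holding 0.0617 to 0.0890% of counts) and rounded.

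Groups were compared with edgeR 4.0.16 in R 4.3.3 (TMM, filterByExpr, quasi-likelihood test, condition only, Benjamini-Hochberg adjustment over all genes tested). Alternatives were DESeq2 1.42.0, limma 3.58.1 voom, RLE factors, other filters, a replicate block, length offsets, no mitochondrial genes, shared reads counted once, and leaving out libraries. Fits were tested on simulated data. Totals were 6534648 to 34102346, so a gene at 1 CPM rests on few reads. CPM ranges and SDs cover the spread between libraries only. Python 3.11.15 read the sequences.

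The members and lists were chosen with earlier results of these data known. Named were members past the threshold, members whose groups do not overlap at a mean of at least 1 CPM, and the 4 highest by TPM in each class. From related lists the rule took up to 4 with the smallest p, the most abundant and any past the threshold. Of the markers, only the dendritic cell genes past the threshold were named. Hist3h2a, Hist3h2ba, Hist4h4, Hist1h3e, Npat, Slbp, H3f3a, H3f3b and genes named for their counts or filter were chosen with their values seen.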

Additional observations from a re-analysis of the deposited data

Results flagged for a closer look

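In 4 of 74 groups of 5 libraries examined, 1 library stood apart from the other 4 by most of the range, and chance sets about 1 in 20 groups apart in this way. MIT-BATF replicate 5 was the highest of its group for 3 genes. It held 562 CPM of Hist1h2ap, against 329 to 390.4 CPM in the rest of its group, 6.98 CPM of Hist1h4b, against 2.35 to 3.34 CPM, and 31.1 CPM of Hist1h4n, against 14.9 to 17.7 CPM. MIT-Empty replicate 4 held 49.6 CPM of Hist1h1c, against 36.4 to 39.5 CPM in the other MIT-Empty libraries.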

How the results depend on the processing

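In no setting run was a histone gene called higher in MIT-BATF libraries. The number called lower was 12 as reported, 21 with DESeq2 and 21 with limma voom, each including all 12, and 3 with shared reads counted once. For DESeq2 and limma voom the share of all genes called is not given here. It was 2 without the contained libraries (Hist1h1d and Hist1h4n), 0 of 56 tested without the containing libraries (edgeR, with 12 at an unadjusted p under 0.05), and 3 without MIT-Empty replicates 2 and 4, a setting chosen after seeing the data. These settings use 6 or 8 libraries or fewer counts. Leaving out 1 library at a time gave 4 to 18. It was 4 without MIT-BATF replicate 2, 5 without MIT-BATF replicate 3, 7 without MIT-BATF replicate 4, 5 without MIT-Empty replicate 2, 6 without MIT-Empty replicate 3, 6 without MIT-Empty replicate 4 and 5 without MIT-Empty replicate 5, and 31 to 33 genes had an unadjusted p under 0.05 in all of these but the last, which had 29. The cause was not tested. The remaining scalings and filters gave 8 to 12.

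The class log2 ratios stayed below 0 in every setting. Leaving out the most abundant gene gave -1.47 for H1, against -0.32, -1.01 for H2B, against -0.64, and -0.28 for H2A, against -0.47. The genes left out of H1 and H2B, Hist1h1c and Hist1h2bc, were themselves near 0. Without the containing libraries the H2A ratio was -0.26 and that of all histone genes -0.33, against -0.50. Hist1h1d was past the threshold in 21 of 22 alternatives, Hist1h3a in 20 and Hist1h2bb in 19, with log2 fold changes no nearer to 0 than -1.65, -0.84 and -1.34. Hist1h1c and Hist1h2bc, near 0, changed sign in 5 and 4 of 22 alternatives and were past the threshold in none.

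Replicate numbers gave little sign of pairing: deviations of same-numbered libraries correlated at -0.05 to 0.22. The best match bore the same number for replicates 1 and 3 but not for replicates 2, 4 and 5. With the replicate number as a block, 11 histone genes were called lower, 9 of them among the 12. Low counts limit most single genes in the shallower libraries.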
